A study of Mus musculus with 12 samples.

Results

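Sh3kbp1, Eif4e2 and Schip1 are 3 of the 24452 gene symbols in the deposited tables, and together they are listed as 15 of the 35840 RefSeq transcripts. Every row of the 12 tables whose symbol was Sh3kbp1, Eif4e2 or Schip1 was used. The symbols were chosen because measured values of some of their transcripts differed widely between these same libraries while other transcripts of the same symbol went the other way. The divisions given here are therefore a description and carry no test. The question they address is how the count of a symbol was divided between its transcripts with and without p53 and with and without ethanol.

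The somatosensory cortex of male C57BL/6 mice was profiled by stranded RNA-Seq at postnatal day 7. WT mice carry intact p53, and p53 KO mice carry a disrupted Trp53, the gene that encodes the p53 transcription factor, in every tissue. Each genotype received intraperitoneal saline or ethanol, which gave WT saline (replicates 1, 3 and 13), WT ethanol (replicates 4, 5 and 14), KO saline (replicates 7, 8 and 9) and KO ethanol (replicates 10, 12 and 18), with 3 libraries per group. The labels do not say which libraries share a litter, and the tissue is a mixture of cell types, so that fewer cells of a type and less RNA per cell cannot be told apart.

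The summed estimated count was between 5060577 and 17066392 in the 10 libraries whose names open with P. It was 1953154 in WT saline replicate 3 and 719735 in the library labelled KO ethanol replicate 12, the 2 libraries whose names open with L. Trp53 itself kept counts in KO libraries (between 11.1 and 28.7 normalized CPM, counts scaled to 1000000 per library, against 3.67 to 26.2 in WT libraries). Its transcript NM_001127233 took between 48.3% and 70.6% of the Trp53 count in the other 5 KO libraries and between 7.0% and 23.1% in the 6 WT libraries. In the library labelled KO ethanol replicate 12 that share was 7.0%, but it rests on 14 Trp53 counts (exact 95% interval 0.2% to 33.9%). The same 7.0% was given in WT saline replicates 1 and 3 and WT ethanol replicate 5, on 20, 51 and 78 counts. Whether any read told the Trp53 transcripts apart in these libraries was not tested. The interval of 0.2% to 33.9% includes the WT shares and lies below the other 5 KO shares, but it covers counting error only. The value therefore does not show which genotype's division that library has. The library labelled KO ethanol replicate 12 stood apart in several of the divisions below, where its value is given by itself. Per the study's methods, some tissue was cut out by laser microdissection and later tissue was taken with a hole punch, and the labels do not say which library came from which, so that the part of the collection method in the results was not tested. Marker levels are given in CPM without TMM scaling factors, unlike normalized CPM. These factors were 0.5638 to 0.9963 in the WT saline and 1.001 to 1.167 in the KO saline libraries. All 5 markers of excitatory cortical neurons were above 0 in every library, at a summed level of 360.0 to 1200.0 CPM. Their sum was 1020.0 to 1200.0 in the KO saline and 627.0 to 971.0 in the KO ethanol libraries, without overlap. The lowest value of 360.0 was in WT ethanol, which also lay below KO saline without overlap. WT saline, at 650.0 to 1100.0, overlapped with each other group. These gaps in unscaled CPM need not hold with TMM scaling. The 3 interneuron markers, all above 0 in every library, summed to 72.2 to 195.0 CPM in the WT saline and 298.0 to 327.0 in the WT ethanol libraries. They summed to 202.0 to 228.0 in the KO saline and 128.0 to 277.0 in the KO ethanol libraries. On this unscaled measure WT saline lay below WT ethanol and KO saline without overlap. The narrow gap to KO saline need not hold with TMM scaling, which was not applied to the markers. None (0) of the 3 choroid plexus markers was above 0 in every library, and their sum reached 101.0 CPM in the WT saline, 5680.0 in the WT ethanol, 2520.0 in the KO saline and 2650.0 in the KO ethanol libraries. Markers of striatum (3 of 3 above 0 in every library) summed to 31.1 to 73.7 CPM in WT saline and up to 666.0 in WT ethanol, and those of thalamus (2 of 3) to 14.8 to 25.5 in WT saline and 34.1 to 655.0 in WT ethanol. Markers of astrocytes, the oligodendrocyte lineage, microglia and endothelium were all above 0 in every library, and their sums overlapped between WT saline and each other group. The part of tissue composition in the results below was not tested.

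A gene can be read from several start sites and can end at several sites, and the transcripts that result may encode proteins that differ at their ends. Sh3kbp1 encodes an adaptor protein with SH3 domains, also called CIN85, which binds the ubiquitin ligase Cbl and the endophilins during the internalization of growth factor receptors. Eif4e2, also called 4EHP, binds the messenger RNA cap without recruiting the translation machinery and represses translation together with Gigyf2 and Zfp598. Schip1 encodes a binding partner of schwannomin, the product of the tumor suppressor Nf2, and is known as a component of the axon initial segment, the ankyrin G-rich stretch of membrane where action potentials arise.

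Sh3kbp1 lies on chromosome X (mm10, 159627272 to 159975920, plus strand) and is listed as 7 transcripts that share an end but not a start. NM_001135727 starts farthest upstream at 159627272. NM_021389 and the non-coding NR_110969 and NR_110970 start at 159708601, NM_001135728 at 159840468, and NM_001290661 and NM_001290664 at 159942693. Eif4e2 lies on chromosome 1 (87213914 to 87240488, plus strand) with 3 transcripts. NM_023314 ends at 87240488, whereas NM_001039170, which shares its start, and NM_001039169 end at 87228858. Schip1 lies on chromosome 3 (68064802 to 68626482, plus strand) with 5 transcripts and a shared end. NM_001113420 and NM_001113421 start at 68064802, NM_001282045 at 68468183, NM_001282044 at 68494181 and NM_013928 at 68572368.

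**Figure D1:**
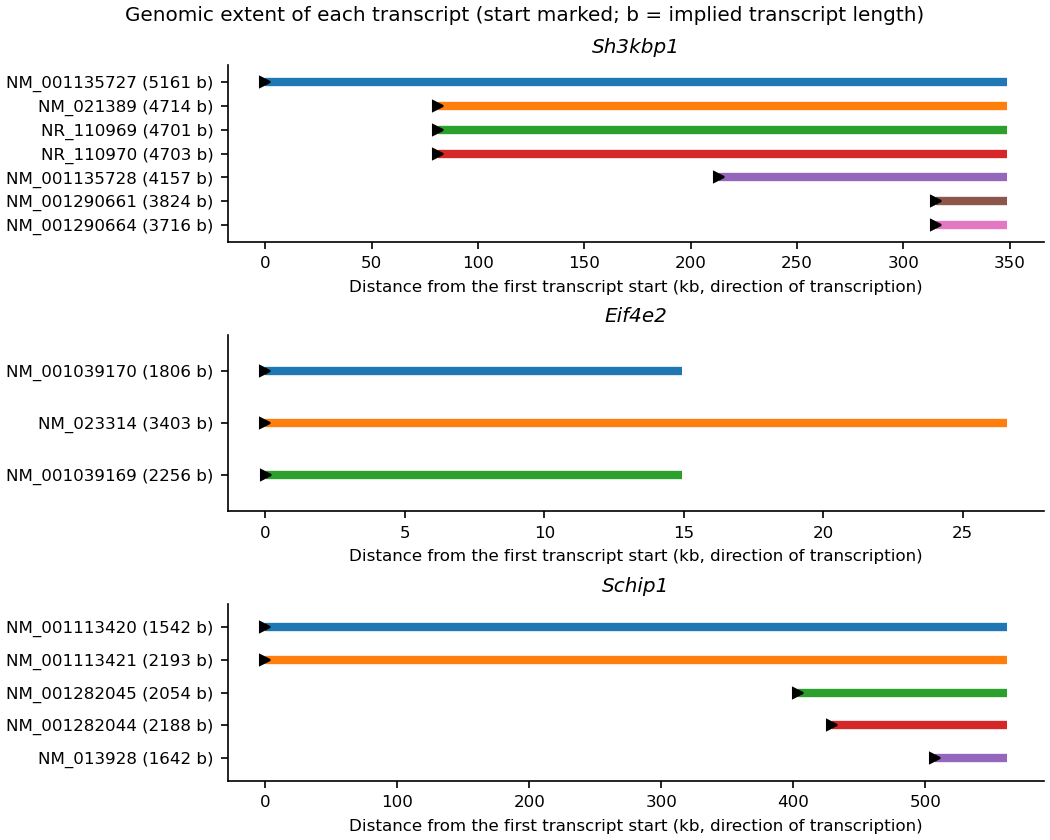
Genomic extent of the 15 transcripts, with the distance from the upstream-most start of each symbol in kilobases on the x axis and 1 transcript per line. Arrowheads mark starts. The length beside each name, in bases, is implied by the deposited values after calibration on GENCODE lengths. The 7 Sh3kbp1 and 5 Schip1 transcripts end together and differ in their starts, and the 3 Eif4e2 transcripts differ mainly in their ends.

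The sequences that tell these transcripts apart are shown first for the Sh3kbp1 starts, since the division of this symbol followed the position of the start. For 3 of the 4 starts RefSeq (build GRCm38.p6) gives the surrounding sequence, here 100 bases before the start in lower case and the 30 transcribed bases in capitals, at chrX:159627172-159627301, chrX:159840368-159840497 and chrX:159942593-159942722 on the plus strand.
NM_001135727 start: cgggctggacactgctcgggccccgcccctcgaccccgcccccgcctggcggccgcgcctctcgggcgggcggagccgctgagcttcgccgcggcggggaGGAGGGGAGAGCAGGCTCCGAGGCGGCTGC
NM_001135728 start: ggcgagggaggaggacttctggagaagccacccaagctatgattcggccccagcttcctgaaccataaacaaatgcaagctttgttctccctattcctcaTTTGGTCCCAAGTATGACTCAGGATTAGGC
NM_001290661 and NM_001290664 start: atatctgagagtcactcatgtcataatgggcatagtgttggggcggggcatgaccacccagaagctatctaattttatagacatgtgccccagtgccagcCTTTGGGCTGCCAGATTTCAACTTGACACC
Over 300 bases around the start, the GC content was 76.3% with 34 CpG dinucleotides at NM_001135727, 51.3% with 6 at NM_001135728, and 47.3% with 2 at NM_001290661 and NM_001290664. The median of all 32851 RefSeq promoter windows of the same length was 52.7% with 7 CpG, and 2.89% of them had a GC content as high as that at NM_001135727. The transcripts also differ in the coding sequence they begin with, shown here as the spliced first 60 coding bases in GENCODE (release 21 for mouse), with the first coding exon in capitals.
NM_001135727: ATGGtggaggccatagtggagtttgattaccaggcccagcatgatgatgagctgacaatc
NM_021389: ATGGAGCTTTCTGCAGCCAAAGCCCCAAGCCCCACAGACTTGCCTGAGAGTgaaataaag
NM_001135728: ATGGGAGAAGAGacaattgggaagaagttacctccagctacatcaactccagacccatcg
The coding sequence is 1998 bases long in NM_001135727, 1887 in NM_021389 and 1284 in NM_001135728. For NM_001290661 and NM_001290664 no matching coding model was used here.

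For Eif4e2 the sequence shown is at the end of the coding sequence, where NM_001039170 and NM_023314 part. NM_001039169 has another coding start (87214491 against 87214000 in GENCODE), which is not shown. NM_001039170 and NM_023314 share their first 665 coding bases. The last 30 shared bases are in lower case below (the last of them at position 87226233), and the bases that follow are in capitals.
NM_001039170: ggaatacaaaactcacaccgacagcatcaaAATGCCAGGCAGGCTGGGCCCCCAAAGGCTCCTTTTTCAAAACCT
NM_023314: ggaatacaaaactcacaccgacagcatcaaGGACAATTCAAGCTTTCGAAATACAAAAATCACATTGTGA
In NM_001039170 the capitals begin at 87227801 and 73 coding bases follow the shared stretch. In NM_023314 they begin at 87237846 and 40 follow. By the GENCODE models, 2643 of the 3394 bases of NM_023314 lie in no other Eif4e2 transcript.

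For Schip1 the transcripts differ in what precedes a stretch of 705 coding bases that all of them share. The upstream pair begins with the same 66 coding bases, of which the last 30 are in lower case. The capitals show what follows.
NM_001113420: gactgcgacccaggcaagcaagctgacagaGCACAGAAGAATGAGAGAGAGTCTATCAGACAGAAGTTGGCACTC
NM_001113421: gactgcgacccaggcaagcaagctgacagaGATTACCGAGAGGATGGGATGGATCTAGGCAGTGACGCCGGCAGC
In NM_001113420 the shared exon at 68596150 follows directly, whereas NM_001113421 first enters an exon at 68494574. NM_013928 begins with 30 coding bases of its own, in capitals, before the shared stretch.
NM_013928: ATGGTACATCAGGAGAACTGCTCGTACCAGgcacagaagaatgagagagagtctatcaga
None (0) of the 1517 bases of NM_001113420 is absent from the other Schip1 transcripts, and what is particular to it is the junction between its first exon and the shared exon.

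In WT saline libraries the Sh3kbp1 count was given mostly to the 2 short transcripts from the start nearest the end of the gene. In the other 3 groups it was given mostly to transcripts from upstream starts, except in the library labelled KO ethanol replicate 12. The summed Sh3kbp1 count overlapped between all groups. NM_001290664 took 61.1%, 49.4% and 38.0% of the Sh3kbp1 count in the 3 WT saline libraries. Its share did not exceed 0.3% in any WT ethanol library, 0.4% in any KO saline library or 1.1% in any KO ethanol library. Every WT saline library was thus above every other library. The group means were 49.5% ± 11.5 in WT saline and 0.1% ± 0.1 in WT ethanol (SD, n = 3 each). Against a floor of 3 counts over the WT ethanol group, NM_001290664 was at least 223.0-fold higher in WT saline. In KO saline libraries its level was lower than in WT saline by a log2 difference of -7.58 (SE 1.21).

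NM_001290661, which shares that start, took 17.6%, 28.7% and 27.5% in the WT saline, 0.1%, 1.2% and 0.1% in the WT ethanol and 0.4%, 1.9% and 0.3% in the KO saline libraries. WT saline was again above both of these groups without overlap. In KO ethanol libraries it took 0.1% and 2.2% in replicates 10 and 18, but 97.4% in the library labelled KO ethanol replicate 12. The latter share rests on 26 Sh3kbp1 counts (exact 95% interval 80.4% to 99.9%). With that library the KO ethanol mean was 33.2% ± 55.6 (SD, n = 3), and the difference from KO saline of 32.4 percentage points was 0.3 points without it.

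NM_001135727, the transcript from the GC-rich start, took 0.0%, 0.0% and 0.1% of the Sh3kbp1 count in WT saline replicates 1, 3 and 13. Estimated counts of 0 of 254 and 0 of 164 have exact 95% intervals that reach 1.4% and 2.2%, which cover counting error only. In WT ethanol libraries the share was 27.0%, 28.2% and 16.4%, and in KO saline libraries 33.4%, 15.3% and 44.1%. In KO ethanol replicates 10 and 18 it was 31.0% and 34.3%. In the library labelled KO ethanol replicate 12 it was 0.0% of 26 counts, with an exact 95% interval up to 13.2%. Without that library, WT saline was below all 8 other libraries. Against a floor of 3 counts over the WT saline group, NM_001135727 was at least 117.0-fold higher in WT ethanol and at least 120.0-fold higher in KO saline.

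The transcripts from the start at 159708601 followed the same order. NM_021389 took 1.2%, 0.0% and 9.1% in the WT saline, 29.9%, 21.7% and 36.0% in the WT ethanol, and 32.0%, 39.9% and 18.7% in the KO saline libraries. WT saline did not overlap with WT ethanol or KO saline. In KO ethanol libraries it took 30.7% and 22.8% in replicates 10 and 18, and 0.0% in the library labelled replicate 12. Its level was higher than in WT saline by 3.57 (SE 0.93) in WT ethanol and by 3.60 (SE 0.93) in KO saline on the log2 scale. The non-coding NR_110970 took at most 5.1% in WT saline and between 7.0% and 17.2% in WT ethanol and KO saline libraries. In KO ethanol it took 10.0% and 6.8% in replicates 10 and 18, and 0.0% in the library labelled replicate 12. NR_110969 took at most 15.6% in any library, and its groups overlapped.

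NM_001135728, from the middle start, stood between these patterns. It took 18.0%, 21.8% and 17.4% in the WT saline, 30.3%, 29.9% and 14.6% in the WT ethanol, 18.2%, 22.9% and 28.7% in the KO saline, and 25.0%, 1.9% and 26.5% in the KO ethanol libraries. The groups overlapped in all 4 comparisons. Its level differed by 0.58 (95% interval -0.75 to 1.91) between WT ethanol and WT saline on the log2 scale.

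**Figure D2:**
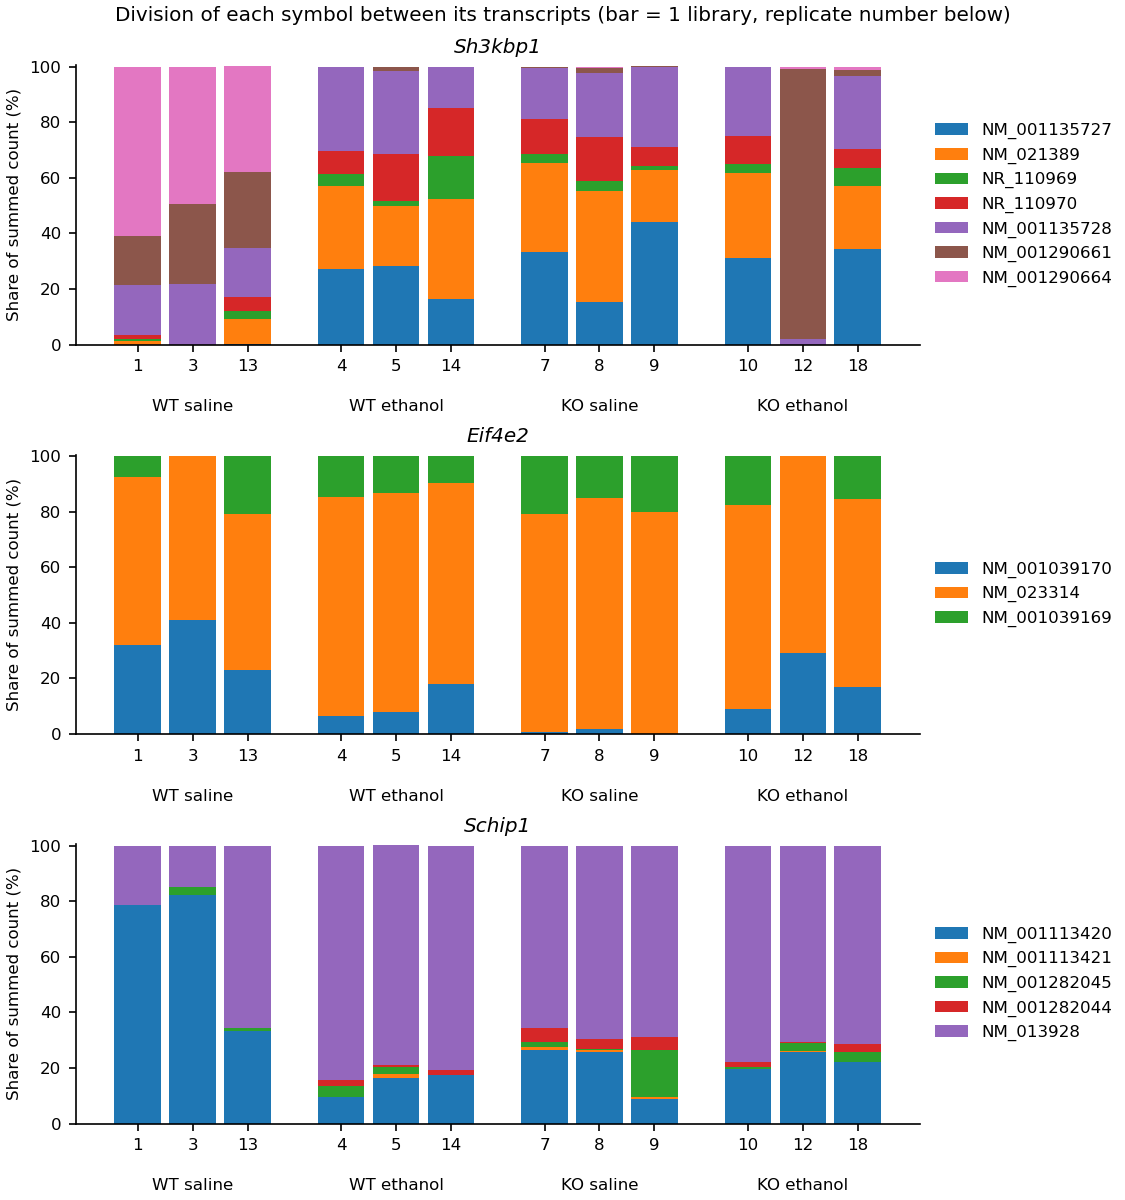
Share of the summed count of Sh3kbp1, Eif4e2 and Schip1 given to each transcript in percent (y axis), with 1 bar per library and replicate numbers below; colors mark transcripts and bars are grouped by genotype and treatment. NM_001290664 takes 38.0% to 61.1% of Sh3kbp1 in WT saline and at most 1.1% elsewhere, and the library labelled KO ethanol replicate 12, with 26 Sh3kbp1 counts, differs from the other KO ethanol libraries.

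Eif4e2 was divided mainly between NM_023314, with the distant end, and NM_001039170, with the near end. NM_001039170 took 31.9%, 40.9% and 23.1% of the Eif4e2 count in WT saline libraries and 6.5%, 7.8% and 18.1% in WT ethanol libraries. It took 0.8%, 1.8% and 0.1% in KO saline, and 9.0%, 29.1% and 17% in KO ethanol libraries. Ethanol libraries were therefore all below saline libraries in WT mice and all above them in KO mice. The mean share was 32.0% ± 8.9 in the WT saline, 10.8% ± 6.4 in the WT ethanol, 0.9% ± 0.8 in the KO saline and 18.3% ± 10.1 in the KO ethanol libraries (SD, n = 3 each). KO ethanol and WT ethanol overlapped. The 29.1% of the library labelled KO ethanol replicate 12 rests on 45 Eif4e2 counts (exact 95% interval 16.4% to 44.3%). Without it, the KO ethanol libraries at 9.0% and 17% were still above all 3 KO saline libraries. The level of NM_001039170 was lower in KO saline than in WT saline by a log2 difference of -5.00 (SE 0.82), and higher in KO ethanol than in KO saline by 4.18 (SE 0.81). The difference of WT ethanol from WT saline was smaller, at -1.49 (SE 0.70, 95% interval -2.98 to 0.00).

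NM_023314 took the larger part of the Eif4e2 count in every library. Per implied length this did not hold throughout, since NM_001039170 took 56.6% and NM_023314 43.4% in WT saline replicate 3, and the 2 were at 45.5% and 45.8% in replicate 1. By count, the share of NM_023314 was 60.5%, 59.1% and 56.2% in the WT saline, 78.8%, 78.8% and 72.2% in the WT ethanol, 78.3%, 83.0% and 79.9% in the KO saline, and 73.3%, 70.9% and 67.6% in the KO ethanol libraries. The shares mirrored those of NM_001039170, above WT saline in WT ethanol and KO saline, and below KO saline in KO ethanol. Its level itself moved less, by 0.53 (95% interval -0.17 to 1.23) between WT ethanol and WT saline and by -0.19 (-0.89 to 0.52) between KO ethanol and KO saline on the log2 scale. NM_001039169, which starts slightly downstream at 87213939 and has the near end, took 7.6%, 0.0% and 20.7% in WT saline and between 9.7% and 20.8% in WT ethanol and KO saline libraries. In KO ethanol it took 17.7% and 15.5% in replicates 10 and 18. In the library labelled replicate 12 it took 0 of 45 counts (exact 95% interval up to 7.9%). Its groups overlapped in all 4 comparisons.

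Schip1 was divided mainly between NM_001113420, with the upstream start, and NM_013928, with the start nearest the end. NM_001113420 took 78.8%, 82.1% and 33.4% of the Schip1 count in WT saline replicates 1, 3 and 13. Its share was 9.6%, 16.5% and 17.4% after ethanol in WT mice. In KO mice it was 26.5%, 25.8% and 8.9% after saline and 19.7%, 25.9% and 22.0% after ethanol. All WT saline libraries were above all others, though replicate 13 lay nearer to the other groups than to its own. The mean was 64.8% ± 27.2 in WT saline and 14.5% ± 4.2 in WT ethanol (SD, n = 3 each). The level of NM_001113420 was lower than in WT saline by log2 differences of -2.31 (SE 0.65) in WT ethanol and -1.74 (SE 0.64) in KO saline.

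NM_013928 took 21.2%, 14.9% and 65.5% in the WT saline, 84.2%, 79.2% and 80.7% in the WT ethanol, 65.8%, 69.5% and 68.7% in the KO saline, and 77.8%, 70.8% and 71.4% in the KO ethanol libraries. Every WT saline library was below every other library, with WT saline replicate 13 (65.5%) and KO saline replicate 7 (65.8%) next to each other. Within KO mice, ethanol libraries were above saline libraries by count, at a mean of 73.3% ± 3.9 against 68.0% ± 2.0 (SD, n = 3 each). The 70.8% of the library labelled KO ethanol replicate 12 rests on 116 counts (exact 95% interval 61.5% to 78.8%). The groups overlapped as a share of RPKM (66.0% to 80.4% against 68.5% to 76.0%). They also overlapped per implied length (70.1% to 77.3% against 65.8% to 71.7%). The level of NM_013928 was higher than in WT saline by 1.29 (SE 0.49) in WT ethanol and 1.20 (SE 0.49) in KO saline on the log2 scale.

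The other Schip1 transcripts took small shares. NM_001282044 took 0.0%, 0.1% and 0.0% in the WT saline, 2.3%, 0.7% and 1.9% in the WT ethanol, 4.7%, 3.7% and 4.9% in the KO saline, and 1.7%, 0.1% and 2.8% in the KO ethanol libraries. By group mean, WT saline was lowest and KO saline highest, with all ethanol libraries above saline in WT mice and below saline in KO mice. Against a floor of 3 counts over the WT saline group it was at least 52.1-fold higher in KO saline. NM_001282045 took between 0.0% and 3.8% in 11 libraries and 16.9% in KO saline replicate 9, and its groups overlapped. NM_001113421, the longest of the 5 by implied length, took at most 1.3% in any library.

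Over the 15 transcripts, the shares of WT ethanol and WT saline did not overlap for 10, those of KO saline and WT saline for 11, those of KO ethanol and KO saline for 5, and those of KO ethanol and WT ethanol for 2. Of the 8115 transcripts of all symbols with at least 2 transcripts and 10 summed counts in every library, 26.4%, 28.7%, 10.4% and 10.9% did not overlap in the same 4 comparisons. Since the symbols were chosen on such values, the counts carry no weight of their own. Comparisons next to each other in this order share the libraries of a group. The counting error alone gives exact 95% intervals that were at most 15.8 points wide for Sh3kbp1, 19.4 for Eif4e2 and 17.3 for Schip1 in libraries with at least 100 counts of the symbol.

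The widest range of a transcript share over the libraries was set beside that of all symbols. Schip1 had at least 50 counts in every library, and its range of 73.2 percentage points for NM_001113420 ranked 47 of 1000 such symbols, of which 25.6% had a range of 50 points or more. Sh3kbp1 and Eif4e2 had fewer than 50 counts in the library labelled KO ethanol replicate 12. Without the 2 libraries named with L, the ranges were 69.9 points for Schip1 (rank 104 of 3051), 61.0 for Sh3kbp1 (rank 244) and 31.8 for Eif4e2 (rank 1329). The median over the 3051 symbols was 28.3 points, so that the range of Eif4e2 was near the middle of all symbols.

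**Figure D3:**
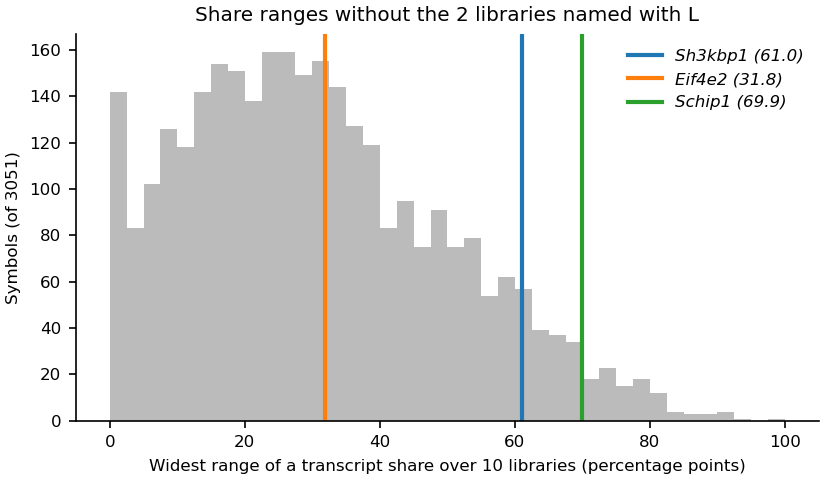
Histogram of the widest range of a transcript share (x axis, percentage points) over the 10 libraries named with P, for 3051 symbols with at least 2 transcripts and 50 counts in each of these libraries (y axis, number of symbols). The lines mark Schip1 at 69.9, Sh3kbp1 at 61.0 and Eif4e2 at 31.8 points.

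NM_001290664, NM_001039170 and NM_001113420, which all took their largest mean shares in WT saline, have a property in common that the choice of symbols did not use. Lengths implied by the ratio of deposited counts and RPKM were 3716 bases for NM_001290664, 1806 for NM_001039170 and 1542 for NM_001113420. Each is the shortest transcript of its symbol by implied length, against 5161, 3403 and 2193 bases for the longest. The GENCODE model of Eif4e2 NM_001039169 is shorter, at 1119 bases. For Schip1 the longest took at most 1.3%, and NM_013928, which took the larger share outside WT saline, has an implied length of 1642 bases, close to that of NM_001113420. The same quantity was computed for 187 other symbols with at least 50 counts in every library and a longest transcript at least 1.3 times as long as the shortest. The median share of their shortest transcript was 29.6%, 31.6% and 19.6% in the WT saline libraries and between 9.5% and 17.6% in the other 9 libraries. In WT saline it was thus above every other library. Of these symbols, 27.8% had a share of the shortest transcript below WT saline in all WT ethanol libraries and 5.35% one above. For KO saline against WT saline these were 28.3% and 5.88%. For KO ethanol against KO saline they were 1.6% and 13.9%, so that higher shares were more frequent there. Counts on transcripts with an implied length over 4000 bases were 16.7%, 31.1% and 23.9% of the total in WT saline, 20.9% in the library labelled KO ethanol replicate 12 and between 31.9% and 38.8% in the other 8 libraries. The part of these library-wide differences in the divisions of Sh3kbp1, Eif4e2 and Schip1 was not tested.

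**Figure D4:**
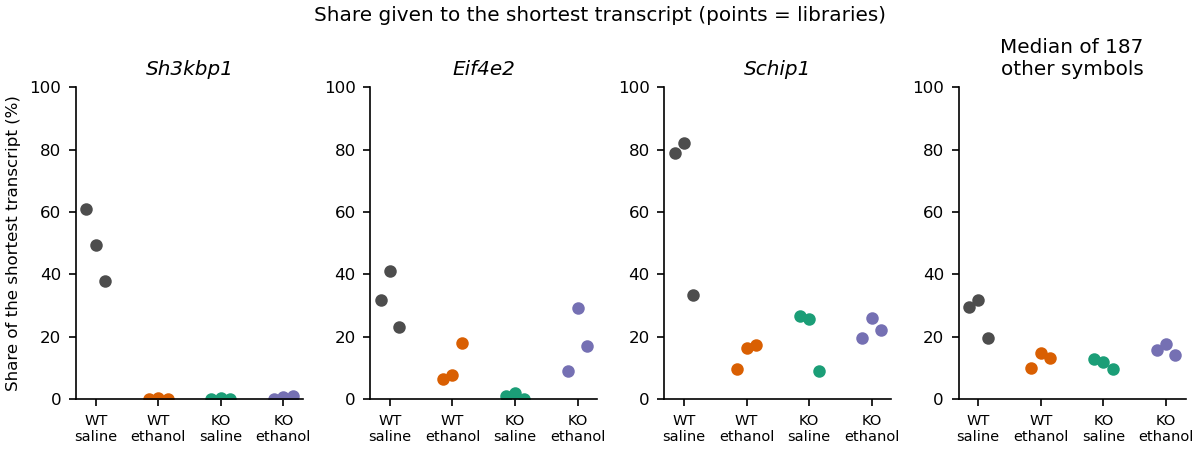
Share of the count given to the shortest transcript in percent (y axis) in each library by group (x axis), for Sh3kbp1, Eif4e2 and Schip1 and as the median of 187 other symbols; each point is a library. In all 4 panels the WT saline points are above the WT ethanol and KO saline points, and for the other symbols they lie at 19.6% to 31.6% against 9.5% to 17.6% elsewhere.

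Over the 12 libraries, the shares most like NM_001290661 of Sh3kbp1 included those of Cyhr1 NM_001276335 (Pearson r = 0.99) and Fyn NM_001122892 (0.969), of 3040 transcripts compared. NM_001290661 itself was at 97.4% in the library labelled KO ethanol replicate 12 and at most 28.7% in the others. The shares most like NM_001039170 of Eif4e2 were those of Mapt NM_001285454 (r = 0.942), Dlgap1 NM_001128180 (0.936) and Rtn4 NM_024226 (0.931). Those most like NM_001113420 of Schip1 were Prpf19 NM_001253844 (r = 0.98), Epb41l1 NM_001291123 (0.97) and Ptpro NM_001164403 (0.97). These values describe 12 libraries that share their depth and composition across all symbols.

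Summed over transcripts, none of the 3 symbols differed between groups by more than its error. Sh3kbp1 was at 46.7, 84.3 and 33.4 normalized CPM in the WT saline, 70.2, 61.5 and 57.4 in the WT ethanol, 58.1, 68.4 and 56.9 in the KO saline, and 49.7, 43.5 and 60.1 in the KO ethanol libraries. WT saline spanned the range of all other groups. Eif4e2 was at 60.4, 54.5 and 57.5 in the WT saline, 67.3, 72.7 and 54.5 in the WT ethanol, 55.2, 62.2 and 60.0 in the KO saline, and 55.7, 75.2 and 49.3 in the KO ethanol libraries. Schip1 was at 174.0, 203.0 and 124.0 in the WT saline, 110.0, 225.0 and 131.0 in the WT ethanol, 101.0, 240.0 and 177.0 in the KO saline, and 106.0, 194.0 and 99.7 in the KO ethanol libraries. The groups overlapped for each symbol in all 4 comparisons.

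The log2 difference of Sh3kbp1, with its 95% interval, was 0.21 (-0.54 to 0.97) between WT ethanol and WT saline, -0.25 (-1 to 0.51) between KO ethanol and KO saline, 0.17 (-0.58 to 0.92) between KO saline and WT saline, and -0.29 (-1.05 to 0.46) between KO ethanol and WT ethanol. The log2 difference of Eif4e2, with its 95% interval, was 0.17 (-0.45 to 0.80) between WT ethanol and WT saline, 0.00 (-0.63 to 0.64) between KO ethanol and KO saline, 0.04 (-0.59 to 0.67) between KO saline and WT saline, and -0.13 (-0.76 to 0.50) between KO ethanol and WT ethanol. The log2 difference of Schip1, with its 95% interval, was -0.10 (-1.01 to 0.80) between WT ethanol and WT saline, -0.39 (-1.30 to 0.52) between KO ethanol and KO saline, 0.05 (-0.85 to 0.95) between KO saline and WT saline, and -0.24 (-1.15 to 0.67) between KO ethanol and WT ethanol. All 12 intervals included 0, which does not show that the sums were equal.

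**Figure D5:**
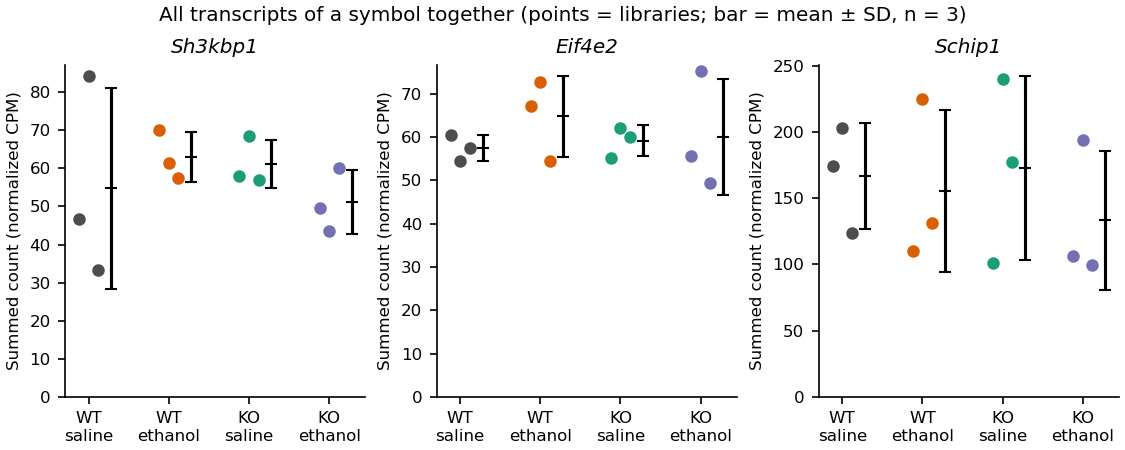
Summed count of all transcripts of Sh3kbp1, Eif4e2 and Schip1 in normalized CPM (y axis) by group (x axis); points are libraries and the bars beside them mean ± SD (n = 3). Groups overlap in every panel, with group means of 51.1 to 63.1 for Sh3kbp1, 57.5 to 64.8 for Eif4e2 and 133.0 to 173.0 for Schip1.

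The partners of the 3 proteins were examined as symbol sums across all transcripts. The lists held endocytosis genes, cap-binding and repressor genes, and schwannomin and axon initial segment genes, of which 84 of 88 were tested. A symbol was called at an adjusted p under 0.30 in edgeR's quasi-likelihood test with Benjamini-Hochberg adjustment over 14739 symbols. In WT ethanol against WT saline, 12.1% of all symbols were called higher and 10.4% lower (18.3% at an unadjusted p under 0.05). In KO saline against WT saline, 12.4% were called higher and 13.4% lower (19.6% at an unadjusted p under 0.05). In KO ethanol against KO saline and against WT ethanol, 0.0% were called higher and 0.0% lower, and 3.15% and 3.24% had an unadjusted p under 0.05. For the interaction of genotype and ethanol, 5.64% of all symbols were called higher and 5.43% lower.

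Of 30 endocytosis genes tested, 3 were called higher (Cbl, Synj1 and Pdcd6ip) and 1 lower (Clta) in WT ethanol than in WT saline, with a list median of 0.10 on the log2 scale against 0.06 for all symbols. In KO saline against WT saline, 5 were higher (Cbl, Itsn1, Synj1, Sos1 and Pdcd6ip) and 2 lower (Sh3gl3 and Clta), with a median of 0.07 against 0.04. Cbl, the ubiquitin ligase bound by Sh3kbp1, was at 3.49, 2.06 and 5.72 normalized CPM in the WT saline, 21.2, 9.54 and 10.5 in the WT ethanol, and 8.56, 15.4 and 18.5 in the KO saline libraries. Both groups were above WT saline without overlap. The log2 difference was 1.80 (SE 0.50, adjusted p = 0.172 in edgeR) for WT ethanol and 1.83 (SE 0.50, adjusted p = 0.176 in edgeR) for KO saline. KO ethanol libraries were at 7.42, 8.36 and 9.26. Cd2ap, the close relative of Sh3kbp1, was at 0.81 (SE 0.55) in WT ethanol against WT saline, and the endophilin gene Sh3gl2 at 0.14 (SE 0.36). Neither was called in any of the 4 comparisons.

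Of 30 cap-binding and repressor genes, 3 were called higher (Gigyf2, Ago2 and Cnot1) and 1 lower (Eif4ebp1) in WT ethanol than in WT saline, with a median of 0.15 against 0.06 for all symbols. In KO saline against WT saline, 5 were higher (Gigyf2, Ago2, Eif4g1, Tnrc6b and Cnot1) and 0 lower, with a median of 0.31 against 0.04. Gigyf2, the scaffold that joins Eif4e2 in translational repression, was at 12.5, 20.6 and 8.69 normalized CPM in the WT saline, 40.1, 27.9 and 51.6 in the WT ethanol, and 57.0, 58.9 and 59.9 in the KO saline libraries. In KO ethanol it was at 56.9 and 43.5 in replicates 10 and 18, and at 18.4 in the library labelled replicate 12, within the WT saline range. The log2 difference from WT saline was 1.55 (SE 0.44, adjusted p = 0.18 in edgeR) in WT ethanol and 2.11 (SE 0.45, adjusted p = 0.131 in edgeR) in KO saline. Zfp598, Eif4e, the canonical cap-binding factor, and Eif4ebp2, its inhibitor, were not called. The difference of WT ethanol from WT saline was 0.60 (SE 0.65) for Zfp598, -0.77 (SE 0.42) for Eif4e and 0.96 (SE 0.76) for Eif4ebp2.

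The last list joins genes of schwannomin (also called merlin) with axon initial segment genes, so its counts do not describe the initial segment alone. Of its 24 genes tested, 4 were called higher (Ezr, Scn1a, Nf2 and Rdx) and 0 lower in WT ethanol than in WT saline. The median was 0.10 against 0.06 for all symbols. In KO saline against WT saline, 7 were higher (among them Nrcam, Scn2a1, Kcnq3, Nfasc, Scn1a and Nf2) and 0 lower, with a median of 0.27 against 0.04. Nf2, which encodes schwannomin, was at 48.1, 139.0 and 94.0 normalized CPM in the WT saline, 223.0, 202.0 and 124.0 in the WT ethanol and 130.0, 158.0 and 209.0 in the KO saline libraries. Both groups overlapped with WT saline through its replicate 3. The log2 difference was 0.97 (SE 0.41, adjusted p = 0.238 in edgeR) in WT ethanol and 0.83 (SE 0.41, adjusted p = 0.272 in edgeR) in KO saline. Ezr, which encodes ezrin, was higher in WT ethanol by 1.54 (SE 0.52, adjusted p = 0.204 in edgeR), with 138.0, 27.5 and 44.1 against 24.3, 17 and 30.2 normalized CPM. Nrcam, which encodes a cell adhesion molecule, was higher in KO saline by 0.90 (SE 0.33, adjusted p = 0.185 in edgeR), with 225.0, 425.0 and 314.0 against 195.0, 160.0 and 161.0. Ank3, which encodes ankyrin G, was at -0.82 (SE 0.55) in WT ethanol and was not called.

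Of the 84 partner genes, 0 were called by edgeR in KO ethanol against KO saline or against WT ethanol, while 2 and 3 passed 0.05 without adjustment. The 12 calls in WT ethanol and 19 in KO saline rest on the same WT saline libraries. As shares, 14.3% of the partners against 22.5% of all symbols were called in WT ethanol, and 22.6% against 25.8% in KO saline. In WT ethanol against WT saline, 0 partners were called without WT saline replicate 1 (1.3% of all symbols) or without WT ethanol replicate 4 (0.476%). The number was 3 without WT ethanol replicate 14 (3.57% of partners, 5.54% of all symbols) and 36 without WT saline replicate 3 (42.9% and 48.7%). In KO saline against WT saline, 0 were called without WT saline replicate 1 (0.246% of all symbols) or without KO saline replicate 8 or 9 (0.0599% each). It was 6, or 7.14% of partners, without WT saline replicate 13 (13.7% of all symbols) or without KO saline replicate 7 (9.57%), and 40 without WT saline replicate 3 (47.6% and 50.4%). The share of partners was below that of all symbols in each of these fits.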

How the data were processed

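Stranded RNA-Seq was performed by the authors on somatosensory cortex of 12 mice. Single-end reads were aligned by the authors to mm10 with Bowtie2 within TopHat and quantified against RefSeq transcripts in Partek Flow, whose version and settings are not given in the sources used here. The deposited estimated counts per transcript hold fractions, because shared reads were divided between transcripts. The deposited RPKM values are relative to transcript length and total reads, and their distributions nearly coincide across libraries, as after a quantile normalization.

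A share is the estimated count of a transcript divided by the summed count of its symbol in that library, with an exact binomial 95% interval on rounded counts. Intervals and floors of 3 counts cover counting error only. Transcript lengths were implied by the ratio of deposited counts to RPKM, calibrated in each library on GENCODE lengths with a running median over 101 values. For some transcripts they differ from GENCODE, as for NM_001135727 (5161 against 7317 bases) and NM_001039169 (2256 against 1119). Rounded counts per transcript and per symbol were fitted in edgeR 4.0.16, run in R 4.3.3, after its default filter on low counts, using TMM factors and 1 mean per group, which left 14739 symbols and 21715 transcripts. The fit was tested on simulated data. Shares, correlations and intervals were computed in Python 3.11.15 with pandas 2.3.3 and scipy 1.17.1. P-values are two-sided and test differences of group means against the spread between libraries. The members, gene lists and rules were chosen with earlier results of these data known. The named genes are every transcript of the 3 symbols, the lead transcript (widest share range over 12 libraries) with the 3 most similar shares, Cd2ap, Cbl, Sh3gl2, Eif4e, Eif4ebp2, Gigyf2, Zfp598, Nf2 and Ank3 (Iqschfp was not analysed here), and the called partner with the smallest p per list and comparison; some of these are not reported here. Alternatives were DESeq2 1.42.0, library size without TMM, other filters and floors, the name letter as covariate, leaving out libraries, limma 3.58.1 on log2(RPKM + 1), and, chosen after seeing the data, shares per length and leaving KO ethanol replicate 12 out of the lead rule.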

Additional observations from a re-analysis of the deposited data

Results flagged for a closer look

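The share of Eif4e2 NM_001039170 was lower in every ethanol than in every saline library of WT mice (mean difference -21.2 percentage points) and higher in every ethanol than in every saline library of KO mice (17.4 points). The difference between the genotypes of 38.6 points was not tested, since the transcript was chosen on such values. NM_023314 of Eif4e2 showed the opposite signs (18.0 and -9.8 points, a difference of -27.8 points), as the shares of a symbol sum to its whole. For Schip1 NM_001282044 the differences were 1.6 points in WT and -2.9 points in KO mice (-4.5 points apart), also untested. Of the 84 partner genes, 7 (8.33%, against 11.1% of all symbols) had different ethanol effects in the 2 genotypes by the interaction term in edgeR. For Cbl the log2 effect was 1.80 in WT and -0.76 in KO mice, an interaction of -2.56 (SE 0.70, adjusted p = 0.25). For Gigyf2 it was 1.55 and -0.52, an interaction of -2.07 (SE 0.61, adjusted p = 0.25). For Ago2, which encodes a microRNA-binding Argonaute protein, it was 1.92 and -0.91, an interaction of -2.84 (SE 0.81, adjusted p = 0.25). The interaction was -1.84 for Kcnq3 (adjusted p = 0.252), -1.11 for Scn2a1 (adjusted p = 0.287), 1.61 for Clta (adjusted p = 0.287) and 1.76 for Csnk2b (adjusted p = 0.276). With the name letter as covariate 0 of these calls were made (0.0% of all symbols), and 0 were made without any 1 of WT saline replicate 1, WT ethanol replicate 4, KO saline replicate 8, KO saline replicate 9 or the library labelled KO ethanol replicate 12, whereas 30 partners (35.7%, against 33.8% of all symbols) were called without WT saline replicate 3. The effects in WT mice rest on the WT saline libraries, in which the shortest transcripts of other symbols also took larger shares. In KO mice, of 187 other symbols, 131 had a higher mean share of the shortest transcript after ethanol and 56 a lower one. Their median difference was 1.0 point, against 17.4 points for NM_001039170. The part of these library-wide differences in the effects above was not tested.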

How the results depend on the processing

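No paired analysis was possible because the 4 groups share no replicate number. No direction of a share or sum of the 3 symbols was called, so that none could be lost or turned as a call. The sign turned in 2 of 132 recomputed share differences and in 18 of 156 differences of sums. The limma fits used summed RPKM, which is relative to transcript length and thus another quantity than the summed count. With them the Sh3kbp1 sum went from 0.21 to -0.21 in WT ethanol and from 0.17 to -0.26 in KO saline against WT saline. Without KO saline replicate 9 the NM_001113420 share in KO ethanol minus KO saline went from 2.1 to -3.6 points. Moves of share differences were judged by the SD of the groups compared. For NM_001290661 in KO ethanol that SD was 55.6, so its fall from 32.4 to 0.3 points against KO saline was not counted. The share differences of the lead transcripts moved by more than 1 SD in 4 cases, all for Eif4e2 NM_001039170. KO ethanol minus KO saline was 25.9 points as a share of RPKM and 26.5 points per implied length (17.4 as reported), and KO saline minus WT saline was -43 and -43.6 points (-31.1 as reported). With 1 library left out the differences of NM_001290661 in KO ethanol ranged from 0.3 to 49.0 (against KO saline) and 0.7 to 49.3 points (against WT ethanol), the lower value without the library labelled KO ethanol replicate 12, and without that library the lead transcript of Sh3kbp1 is NM_001290664. The Eif4e2 sum in WT ethanol against WT saline was 0.62 on the log2 scale without TMM factors and -0.09 with limma on RPKM. In KO saline against WT saline it was 0.50 without TMM factors and 0.17 with at least 10 counts in every library. It was -0.06 without the 2 libraries named with L and -0.28 with limma on RPKM. Without TMM factors the median of all symbols was itself 0.49 in both comparisons. The 12 partner calls in WT ethanol (14.3% of partners, 22.5% of all symbols) became 20 with DESeq2 (24.4% and 27.6%), 26 without TMM factors (31.0% and 27.5%), 8 with at least 1 count in any library (9.2% and 16.1%) and 39 without the libraries named with L (46.4% and 55.4%), and ranged from 0 to 36 with 1 library left out. The 19 calls in KO saline (22.6% and 25.8%) became 31 without TMM factors (36.9% and 27.5%), 10 with at least 1 count in any library (11.5% and 17.2%) and 47 without the libraries named with L (56.0% and 56.4%), and ranged from 0 to 40 with 1 library left out. Symbols with a share range of 50 points or more were 35.2% at a floor of 10 counts, 21.4% at 100 counts and 17.6% without the libraries named with L, and Schip1 was among the widest 11.7% at a floor of 10 counts and 3.41% without those libraries. The library labelled KO ethanol replicate 12 had 26 Sh3kbp1 and 45 Eif4e2 counts, which limits its shares.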
